A study of Mus with 15 samples.

Results

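Fat grafts on day 7 after grafting were compared with control fat by mRNA sequencing of 5 samples from each group. Genes entered the comparison with at least 10 counts in at least 5 of these 10 samples, a rule met by 15599 of the 55471 genes in the deposited matrix. Both groups came from wild-type mice of the strain C57BL/6 aged 7 weeks, per the labels, which call all samples adipose tissue and separate the groups only as control or as a graft of 7 days. The labels name no depot, graft site, donor or sex, and they do not say whether the 5 samples of a group came from separate animals, so p-values measure the spread between these samples, which may be technical. The series holds 15 samples in all, and its 5 grafts of day 3 enter no value below.

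White fat stores triglyceride in adipocytes, which take up glucose under insulin, make and release fatty acids, and secrete hormones such as adiponectin and leptin. A piece of fat moved without its vessels lives at first on diffusion, and its fate is known to involve death of many adipocytes, clearance of lipid by macrophages, growth of new vessels and deposition of collagen by fibroblasts. In bulk tissue such as this, fewer cells of a type and less RNA per cell cannot be told apart.

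Levels are given in CPM, gene counts relative to the scaled library size, and where genes are compared with each other in TPM, which is also scaled for gene length. Gene lists held 867 entries, of which 831 passed the filter, and the counts below are over those that passed. Changes are fitted log2 fold changes of day 7 minus control ± SE, and a change was called at an adjusted p under 0.05 (limma, Benjamini-Hochberg over all tested genes, n = 5 per group). Library totals were 17.1 to 31.8 M counts in controls and 20.2 to 32 M in grafts. The first principal component (74.6% of the variance) placed the controls at -92.2 to -47.3 and the grafts at 72.5 to 81.5.

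Several libraries stood apart within their group, and their marker levels are given as scores, the mean log2(CPM + 1) of a list. Control 4 held few lymph node genes, with a B cell score of 4.31 against 7.11 to 8.02 in the other controls, and lay alone on the second component at -82.8. Control 2 held skeletal muscle, with a score of 7.81 against 1.61 to 4.67, and control 1 was the library with keratinocyte genes, with 1011 counts of Krt1 against 0 in each of the other 9 libraries. Control 5 had the highest control scores of macrophage, neutrophil and activated fibroblast genes. Day 7 graft 5 had the lowest graft scores of smooth muscle and cell cycle genes. Genes of mesothelium, the lining of body cavities, were counted in day 7 grafts 2 and 5, with 129 and 306 counts of Wt1 against 0 to 25 in the other 8 libraries. The epididymis list had scores of 0.01 to 0.20. These levels are set beside the results they touch, and their part in those results was not tested.

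**Figure D1:**
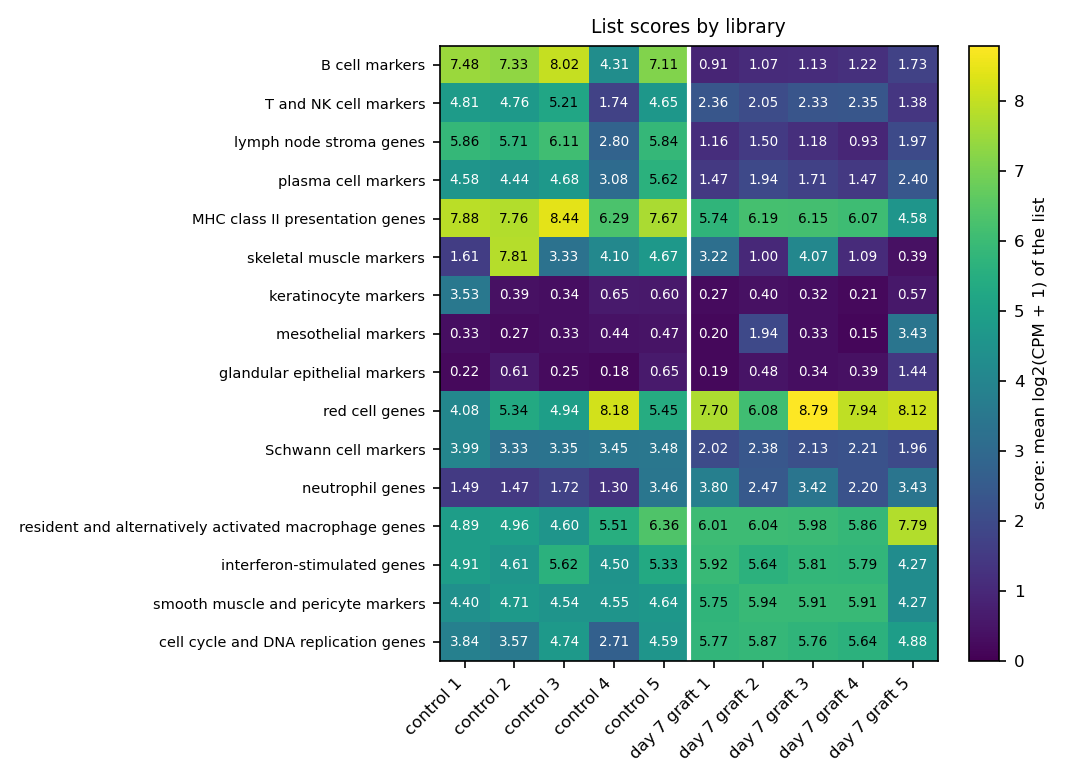
Each cell gives the score of a gene list, the mean log2(CPM + 1) of its members, in 1 library, with controls 1 to 5 on the left and day 7 grafts 1 to 5 on the right. Control 4 is low in B cell (4.31) and T cell (1.74) markers, control 2 is high in skeletal muscle (7.81), and day 7 graft 5 is low in smooth muscle (4.27) and high in mesothelial markers (3.43).

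Most tested genes changed. At day 7, 9114 genes were called (58.4% of those tested), of which 5087 were higher (32.6%) and 4027 lower (25.8%). At least 2-fold, 2917 were higher (18.7%) and 2356 lower (15.1%). At least 16-fold, the balance lay on the other side, with 231 higher (1.48%) and 401 lower (2.57%). In 3824 genes all 5 grafts lay above all 5 controls (24.5%), and in 2946 all lay below (18.9%). The median change over all tested genes was 0.06. Higher genes made up 55.8% of the calls, 50.6% without control 4 and 74.2% on TPM, a scale that moved the median of all genes to 0.34. Of 924 long noncoding RNAs 206 rose and 336 fell (median -0.41), against 33.9% and 25.1% of 14009 protein-coding genes.

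**Figure D2:**
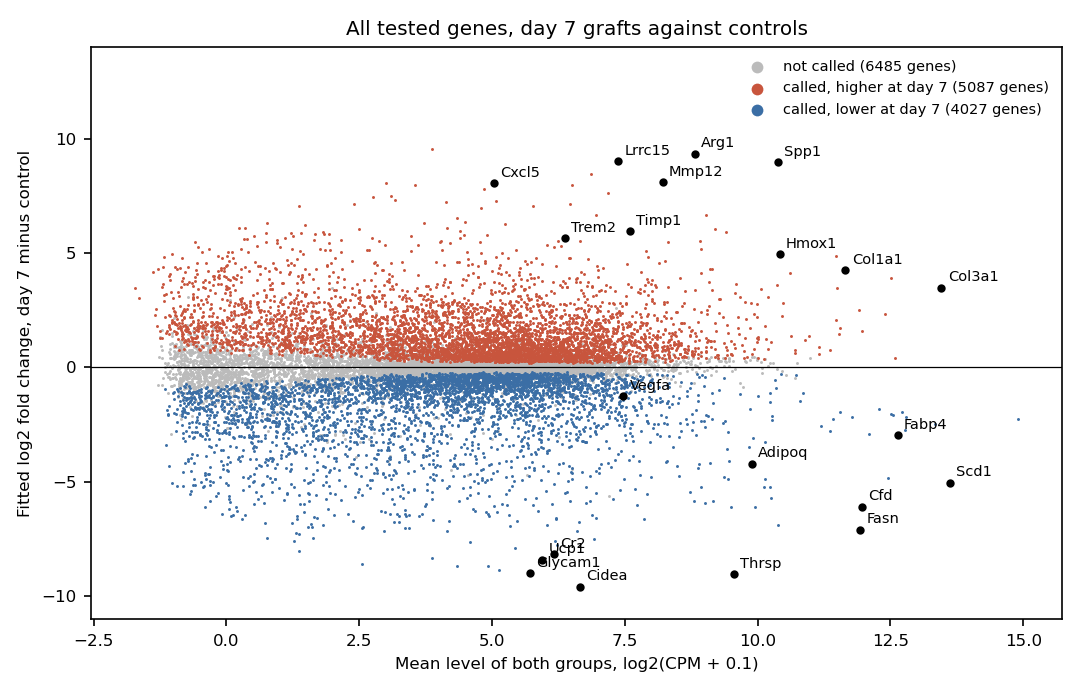
Each point is 1 of 15599 tested genes, with its mean level on the x axis in log2(CPM + 0.1) and its fitted log2 fold change of day 7 minus control on the y axis. Among the genes marked by name, the adipocyte genes Scd1, Fabp4, Cfd and Fasn lie low on the right, and Col3a1 and Col1a1 lie high on the right.

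The change was plain among the most abundant transcripts. In TPM, and leaving aside transcripts of the mitochondrial genome and predicted genes, the top 4 in control fat were Fabp4, the fatty acid carrier of adipocytes (18100), Cfd, the adipokine adipsin (12800), Car3, a carbonic anhydrase of adipocytes (8170), and Scd1, a desaturase of fatty acids (5790). In the grafts the top 3 were Ftl1, a ferritin chain that stores iron (9200), Lyz2, the lysozyme of macrophages (8840), and Col3a1, a chain of fibrillar collagen (7440). Transcripts of the mitochondrial genome took 9.01 to 14.9% of the counts in controls and 2.17 to 2.89% in grafts.

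All 17 genes of adipocyte identity passed the filter and all 17 fell, with a median of -4.31, against 25.8% lower and a median of 0.06 over all tested genes. Adipoq, which encodes adiponectin, was at 1394, 1461, 1145, 3650.0 and 1354 CPM in controls 1 to 5 and 57.1, 133, 78.2, 107 and 80.3 CPM in day 7 grafts 1 to 5. Control 4 was the highest of the 10 libraries, and no graft came near the lowest control (-4.21 ± 0.32, adjusted p = 6.73e-06). Pparg, the nuclear receptor that drives adipocyte differentiation, was at 193, 133, 62.5, 329 and 67.8 CPM in controls 1 to 5 and 19, 29.8, 28.0, 27.1 and 19.9 CPM in day 7 grafts 1 to 5. Its groups did not overlap either (-2.40 ± 0.42, adjusted p = 7.01e-04). Lep, which encodes the satiety hormone leptin, was at 45.7 to 280.2 CPM in controls and 5.41 to 28.5 CPM in day 7 grafts (-2.86 ± 0.61, adjusted p = 0.00243). The deepest falls of the list were those of Adrb3, the adrenergic receptor of adipocytes (-7.13 ± 0.87), Cfd (7857 ± 4009.6 to 109.9 ± 32.2 CPM, -6.09 ± 0.33) and Slc36a2, an amino acid transporter of the adipocyte surface (-5.77 ± 0.31). The list's summed share of all TPM was 4.02, 4.15, 3.72, 6.39 and 4.34% in the 5 controls and 0.246, 0.537, 0.361, 0.454 and 0.455% in the 5 grafts, so that day 7 graft 1 kept the least and day 7 graft 2 the most.

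Genes of thermogenic fat fell as well. Of 10 tested, 8 fell and 2 were not called, with a median of -5.02. Ucp1, the uncoupling protein of brown and beige adipocytes, was at 310.4, 111, 22.3, 16.8 and 152 CPM in controls 1 to 5 and 0.150, 0.103, 2.31, 0 and 0.264 CPM in day 7 grafts 1 to 5. Controls differed widely among themselves, while no graft rose above the lowest control (-8.40 ± 2.04, adjusted p = 0.00496, and -9.36 without day 7 graft 3 and -7.69 without graft 4). Cidea, a lipid droplet protein of beige fat, had the lowest fitted value of the genes named by the rule for extremes (202 ± 90.8 to 0.304 ± 0.302 CPM, -9.58 ± 0.81, adjusted p = 9.96e-06). Cox8b, a subunit of cytochrome oxidase in thermogenic fat and muscle, followed (-8.87 ± 0.90, and -9.49 without day 7 graft 3). Dio2, the deiodinase that activates thyroid hormone, was at 8.83 ± 5.58 CPM in controls and 4.02 ± 1.07 CPM at day 7 and was not called (-0.91 ± 0.42, adjusted p = 0.0815), though it passed without control 3 (-1.11, adjusted p = 0.0455) or control 4 (-1.20, adjusted p = 0.0207).

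Fatty acid synthesis and triglyceride assembly fell as complete sets of the genes listed, with 14 of 14 and 10 of 10 lower and medians of -5.12 and -4.13. Fasn, fatty acid synthase, was at 10918, 9158, 6803, 9742 and 2273 CPM in controls 1 to 5 and 46.8, 50.8, 57.8, 60.8 and 39.1 CPM in day 7 grafts 1 to 5. Control 5 was the lowest control and still far above every graft (-7.09 ± 0.34, adjusted p = 1.55e-06). Thrsp, a nuclear protein that follows the rate of lipid synthesis, fell from 1496 ± 564 to 2.75 ± 1.01 CPM (-9.04 ± 0.36), and Acacb, an acetyl-CoA carboxylase, fell too (-6.02 ± 0.27). In triglyceride assembly, Gpd1, which makes glycerol phosphate (-6.11 ± 0.33), Mogat1 (-5.97 ± 0.70) and Dgat2 (-5.85 ± 0.40), both acyltransferases, fell most.

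Lipid droplets and their breakdown split by gene. Of 13 tested, 9 fell, 3 rose and 1 was not called, with a median of -2.93. The adipocyte droplet coat Plin1 was at 478 ± 159.5 TPM in controls and 33.3 ± 15.9 TPM at day 7 and fell (-4.31), and the hormone-sensitive lipase Lipe fell (-4.19 ± 0.34). The 3 that rose were Plin2, the droplet coat of most other cell types, Plin3, a coat protein found in many tissues (0.71 ± 0.15), and Hilpda, a lipase inhibitor induced by low oxygen (6.88 ± 4.73 to 109.8 ± 82.7 CPM, 3.94 ± 0.53). Plin2 was at 519, 416, 272, 549 and 416 CPM in controls 1 to 5 and 906, 1403, 1094, 1087 and 1411 CPM in day 7 grafts 1 to 5. Every graft lay above every control (1.46 ± 0.21, adjusted p = 2.10e-04), and in TPM, Plin2 was at 323 ± 51.5 TPM in controls and 1161 ± 176 TPM at day 7, so that the order of the coats turned. Uptake of fatty acids did not lean as a list, with 3 of 12 genes lower, 1 higher and 8 not called (median -0.18). These shares were no more than the 25.8% lower and 32.6% higher over all tested genes. Lpl, the lipase that feeds fat from the blood (-2.25 ± 0.36), and Acsl1, the acyl-CoA synthetase of adipocytes (-4.87 ± 0.24), fell, and Acsl4, which prefers arachidonic acid, rose (1.10 ± 0.22). The scavenger receptor Cd36, shared by adipocytes, vessels and macrophages, was at 1978 ± 942 CPM in controls and 1355 ± 292 CPM at day 7 and was not called (-0.45 ± 0.27, adjusted p = 0.172, and 0.01 on TPM). The count of higher genes of this list was 3 without control 4 and 2 without control 5 or day 7 graft 4.

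Fatty acid oxidation fell in 19 of 20 genes (median -2.44). The other one, Cpt1a, the entry enzyme of most tissues, rose. It was at 39.1, 58.9, 85.1, 51.2 and 79.8 CPM in controls 1 to 5 and 194, 219, 209, 205 and 194 CPM in day 7 grafts 1 to 5, with the groups well apart (1.75 ± 0.20, adjusted p = 5.54e-05). Its counterpart of muscle and brown fat, Cpt1b, fell (-3.11 ± 0.52), from equal TPM in controls, 18.7 ± 13.4 TPM in controls and 2.49 ± 0.812 TPM at day 7, whereas Cpt1a was at 18.7 ± 8.63 TPM in controls and 74.0 ± 7.24 TPM at day 7. Ppara, the nuclear receptor for fatty acid oxidation, fell (-5.30 ± 0.56), and Ehhadh, a peroxisomal enzyme, fell too (-3.78 ± 0.32).

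Mitochondrial genes fell more evenly than any of the lipid lists. All 42 nuclear genes of the respiratory chain that were listed and tested fell, within -1.95 to -0.65 and at a median of -1.20, and all 13 protein-coding genes of the mitochondrial genome fell, at a median of -2.31. Uqcrfs1, the iron-sulfur subunit of complex III, fell (-1.95 ± 0.18), and mt-Nd2, a complex I subunit, fell more (-2.93 ± 0.24). Nuclear copies of mitochondrial genes are listed among predicted genes at high TPM, so reads of the mitochondrial genes may be shared with them and their values are uncertain. Of 23 genes of pyruvate oxidation and the TCA cycle 22 fell (median -1.74). Pcx, pyruvate carboxylase, which feeds lipid synthesis in fat, fell most (-6.12 ± 0.29), followed by Pdhb, a pyruvate dehydrogenase subunit (-2.93 ± 0.21). Breakdown of branched-chain amino acids, a main fuel of adipocytes, fell in 16 of 17 genes (median -2.57), led by Aldh6a1 (-4.12 ± 0.23) and Mccc1 (-3.28 ± 0.23).

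Insulin signalling and the pentose phosphate pathway also leaned down. Of 13 insulin signalling genes 10 fell, 1 rose and 2 were not called (median -1.46). Slc2a4, the insulin-regulated glucose transporter, was at 107 to 279 CPM in controls and 1.88 to 5.80 CPM in day 7 grafts and fell (-5.92). Pde3b, the phosphodiesterase by which insulin restrains lipolysis, fell (-3.01 ± 0.25), and the kinase Akt1 rose (1.10 ± 0.10). Of 8 pentose phosphate enzymes 6 fell and 2 were not called (median -0.81), with Tkt, transketolase, at 1751 ± 781 CPM in controls and 184 ± 21.1 CPM at day 7 (-3.08 ± 0.34).

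**Figure D3:**
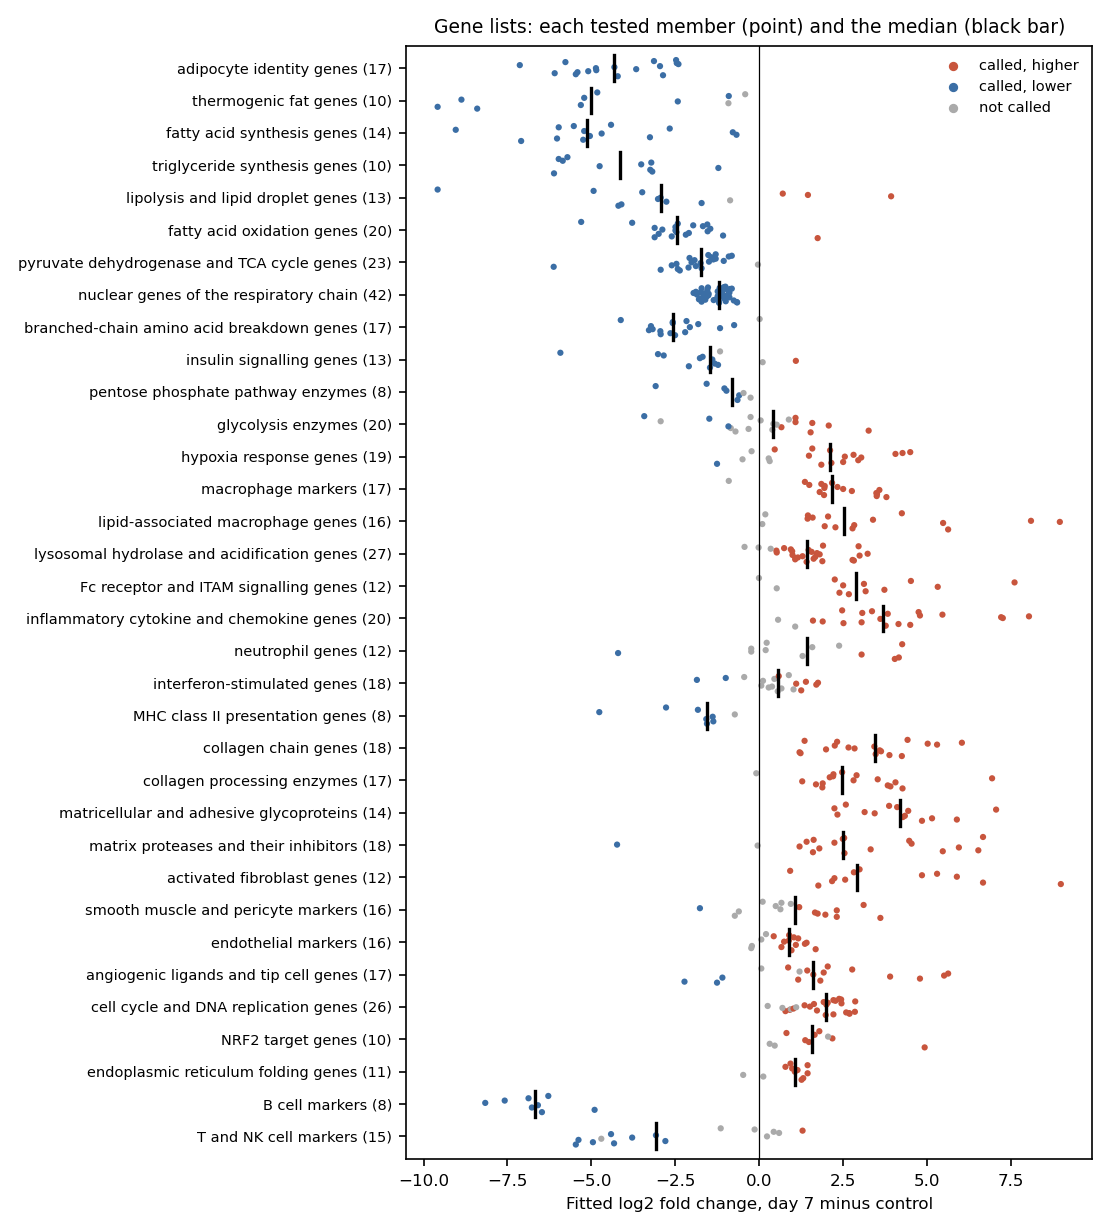
Each row is a gene list with the number of tested members in brackets, each point a member's fitted log2 fold change of day 7 minus control, and the black bar the median. The medians of adipocyte identity (-4.31), fatty acid synthesis (-5.12) and the respiratory chain (-1.20) lie left of 0, and those of macrophage markers (2.18), cytokines (3.70) and collagen chains (3.46) lie right of it.

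Glycolysis was mixed. Of 20 enzymes 7 rose, 3 fell and 10 were not called, with a median of 0.41, against 32.6% higher and 25.8% lower over all genes, and without day 7 graft 2 the count of lower enzymes was 1. Pgk1, phosphoglycerate kinase, rose (279 ± 40.4 to 906 ± 436 CPM, 1.59 ± 0.26), as did Hk3, a hexokinase of white blood cells (3.27). Hk2, the hexokinase of muscle and fat, was at 178, 118, 45.6, 135 and 62.7 CPM in controls 1 to 5 and 56.2, 30.9, 58.1, 52.7 and 133 CPM in day 7 grafts 1 to 5. Day 7 graft 5 lay among the higher controls, the other 4 grafts lay below every control but control 3 or below all of them, and the gene was not called (-0.70 ± 0.44, adjusted p = 0.189, and -1.0 with adjusted p = 0.053 without that graft). Skeletal muscle, which is rich in glycolytic enzymes, had marker scores of 1.61 to 7.81 in controls and 0.39 to 4.07 in day 7 grafts.

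Of 17 pairs within gene families, which were chosen with earlier results known, 8 had 1 member lower and the other higher, 2 had both higher, 2 had both lower and 5 had a member that was not called. For glucose transport, Slc2a4 went from the larger to the smaller share, at 106 ± 32.3 TPM in controls and 2.7 ± 1.44 TPM at day 7, and Slc2a1, the transporter of most cells, from the smaller to the larger, at 8.32 ± 3.53 TPM in controls and 64.4 ± 43.4 TPM at day 7. Slc2a1 was at 17.9, 15.9, 23.3, 10.6 and 24.7 CPM in controls 1 to 5 and 90.6, 38.6, 104, 96.8 and 279 CPM in day 7 grafts 1 to 5. Every graft lay above every control, and graft 5 stood well above the other grafts (2.50 ± 0.47, adjusted p = 0.00112). The lactate exporter Slc16a3 was at 1.87 ± 1.43 TPM in controls and 91.7 ± 41.9 TPM at day 7, and its relative Slc16a1 at 23.1 ± 11 TPM in controls and 19.2 ± 3.21 TPM at day 7, with Slc16a3 higher in every graft than in any control (5.36 ± 0.61) and Slc16a1 not called (-0.54 ± 0.32, adjusted p = 0.175). Of the kinases that switch off pyruvate dehydrogenase, Pdk2 fell (-3.11 ± 0.32) and Pdk3 rose (1.39 ± 0.26). In the respiratory chain, Ndufa4, a subunit of cytochrome oxidase, fell (-1.71 ± 0.21), and Ndufa4l2, its relative that is induced by low oxygen, rose (4.51 ± 0.49). Ndufa4 remained the more abundant, with 888 ± 165 TPM in controls and 344 ± 42.5 TPM at day 7 against 3.67 ± 0.977 TPM in controls and 134 ± 53.2 TPM at day 7 for Ndufa4l2.

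**Figure D4:**
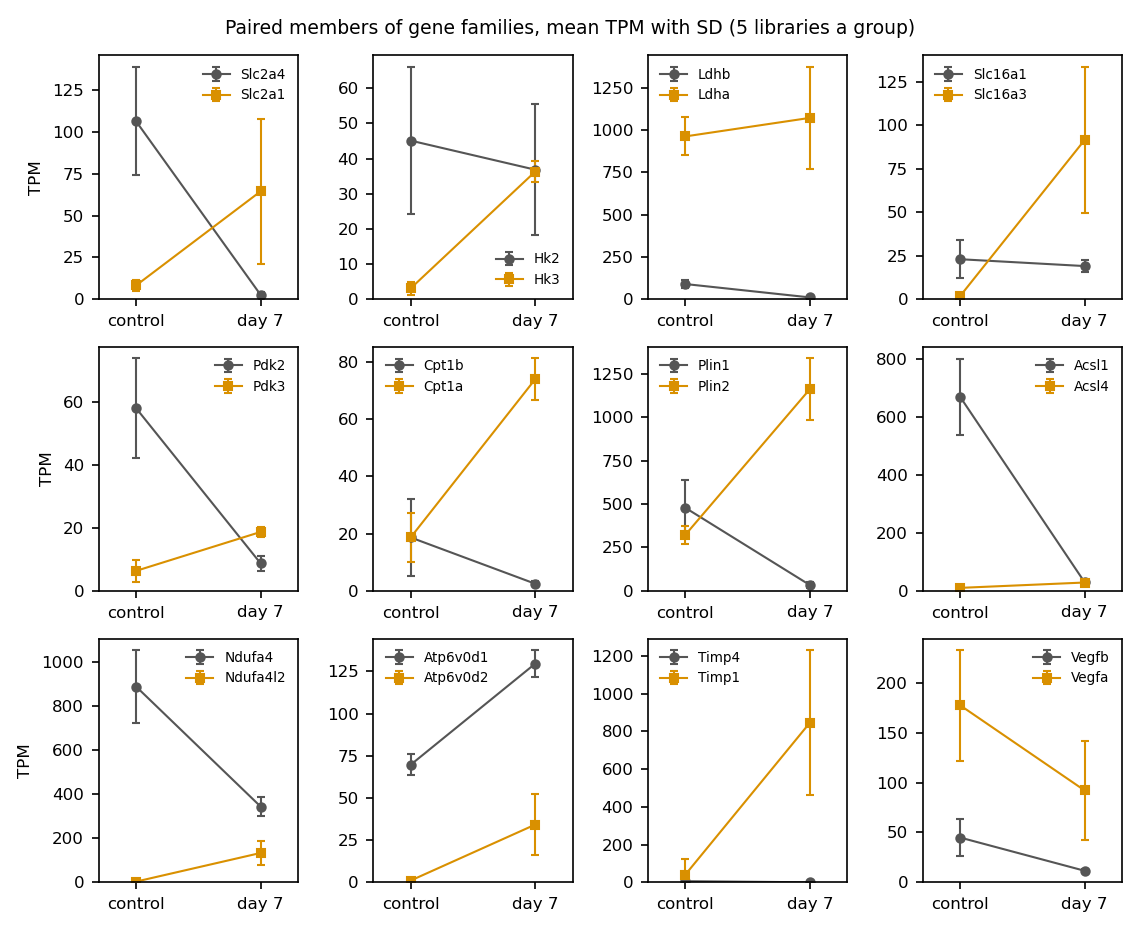
Each panel plots the mean TPM ± SD of 2 members of a gene family in controls and day 7 grafts (5 libraries each), on a linear axis from 0 that clips lower arms at 0. The lines cross for Slc2a4 and Slc2a1, Slc16a1 and Slc16a3, Pdk2 and Pdk3, and Plin1 and Plin2, and stay apart for Ldhb and Ldha and for Vegfb and Vegfa.

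Genes of the response to low oxygen rose in 14 of 19 cases, with 1 lower and 4 not called (median 2.12). Hif1a, the oxygen-regulated transcription factor subunit, was at 92.3, 79.8, 93.4, 74.4 and 151 CPM in controls 1 to 5 and 515, 287, 400.3, 346 and 238 CPM in day 7 grafts 1 to 5. Every graft lay above every control (1.86 ± 0.24, adjusted p = 1.03e-04). Besides Ndufa4l2, the largest rises were those of Lox, which crosslinks collagen (70.9 ± 67.5 to 1029 ± 446 CPM, 4.28 ± 0.66), and Plod2, which hydroxylates collagen lysines (4.07 ± 0.28). Vegfa, the main growth factor for vessels and a classical target of Hif1a, went the other way, at 244, 233, 161, 461 and 135 CPM in controls 1 to 5 and 68.3, 48.4, 109, 89.3 and 227 CPM in day 7 grafts 1 to 5. Grafts 1 to 4 lay below all controls, and graft 5 lay inside the control range (-1.25 ± 0.43, adjusted p = 0.0272). The call was lost on leaving out control 1 (adjusted p = 0.0549) or 2 (0.0548) and without day 7 graft 1 (0.0631), 2 (0.061) or 4 (0.0521). Day 7 graft 5 also had the highest hypoxia score, at 7.43, above 5.68 to 6.45 for grafts 1 to 4 and 4.55 to 5.08 for controls.

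Macrophage genes rose across the list, with 16 of 17 higher and 1 not called (median 2.18). Adgre1, which encodes the macrophage surface protein F4/80, was at 24.6, 22.6, 17.8, 46.2 and 93.2 CPM in controls 1 to 5 and 502, 476, 558, 403 and 451 CPM in day 7 grafts 1 to 5. Control 5 was the highest control and lay far below the lowest graft (3.80 ± 0.42, adjusted p = 4.18e-05). Msr1, a scavenger receptor (3.59 ± 0.42), and Itgam, an integrin of myeloid cells (3.52 ± 0.46), rose alongside. Of 16 genes known from lipid-laden macrophages of fat 14 rose and 2 were not called (median 2.53). Trem2, a lipid-sensing receptor of these cells, was at 3.33, 1.86, 1.75, 2.05 and 14.3 CPM in controls 1 to 5 and 121, 194, 144, 176 and 169.9 CPM in day 7 grafts 1 to 5. Controls 1 to 4 were near 0 beside every graft (5.64 ± 0.44, adjusted p = 7.27e-06). Spp1, the secreted protein osteopontin, rose from 22.0 ± 42.0 to 2658 ± 149 CPM (8.97 ± 0.92, adjusted p = 2.60e-05), and Mmp12, the elastase of macrophages, from 2.42 ± 1.76 to 591 ± 176 CPM (8.11 ± 0.41, adjusted p = 1.61e-06). Without control 5 the change of Spp1 was 10.03. Apoe, a lipid carrier made by both adipocytes and macrophages, was at 1568 ± 335 CPM in controls and 1848 ± 748 CPM at day 7 and was not called (0.19 ± 0.25, adjusted p = 0.542, and -0.02 without day 7 graft 5).

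Genes of resident and alternatively activated macrophages did not move together. Of 14 tested, 6 rose, 3 fell and 5 were not called (median 1.65), against 32.6% higher and 25.8% lower over all tested genes. Arg1, the enzyme arginase 1, was at 0.624, 0.465, 0.0922, 1.65 and 7.62 CPM in controls 1 to 5 and 636, 122, 684, 430.2 and 2634 CPM in day 7 grafts 1 to 5. Graft 5 stood far above the other grafts, graft 2 held the least, and all grafts lay above all controls (9.34 ± 1.27, adjusted p = 1.40e-04, with 8.59 without control 3 and 10.13 without control 5). Mrc1, the mannose receptor, rose from 163 ± 137 to 1092 ± 562 CPM (2.97 ± 0.52). Timd4, a receptor of long-lived resident macrophages, was at 58.0, 38.8, 61.1, 24.4 and 59.5 CPM in controls 1 to 5 and 0.263, 1.27, 0.338, 0.189 and 3.28 CPM in day 7 grafts 1 to 5. Each of the 5 controls lay above each graft (-6.19 ± 0.69, adjusted p = 4.42e-05, and -6.78 without day 7 graft 5). Retnla, a secreted protein of alternatively activated macrophages, fell too (139.8 ± 163 to 9.56 ± 4.87 CPM, -3.22 ± 0.86). Giant cell and osteoclast-type genes rose in 6 of 8 cases with 1 lower (median 2.28), among them Ctsk, the collagen-degrading cathepsin (3.30 ± 0.35), and Atp6v0d2, a proton pump subunit of fused macrophages (4.99 ± 0.77). The acid phosphatase Acp5 fell (408 ± 224 to 75.0 ± 22.1 CPM, -2.36 ± 0.31), and without control 4 there were 2 lower genes in this list.

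Machinery of phagocytosis and digestion rose with the macrophage markers. Of 27 lysosomal genes 24 rose and 3 were not called, at a median of 1.42. Their summed share of all TPM was 0.268 to 0.488% in controls and 1.39 to 1.55% in grafts. The largest rises were those of the protease Lgmn (3.24 ± 0.44), the galactosidase Gla (3.00 ± 0.26) and Tfec, a transcription factor of macrophages (2.97 ± 0.48). For uptake of dead cells, 9 of 13 genes rose and 2 fell (median 1.72), with 1 lower without control 1, 4 or 5 or day 7 graft 1, 3 or 5. Stab1, a receptor for phosphatidylserine, rose (2.86 ± 0.32), and its relative Stab2, a scavenger receptor of sinus endothelium, fell (-3.33 ± 0.65). Of 12 Fc receptor and ITAM signalling genes 10 rose (median 2.90), led by Clec4d, a lectin receptor of myeloid cells (7.62 ± 0.88), and Trem1, an amplifier of inflammation (5.33 ± 1.20). Without control 5 these 2 values were 8.72 and 6.16, and without control 2 that of Clec4d was 7.02.

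Cholesterol genes showed no single direction. Of 12 genes of cholesterol efflux and transport 3 rose, 2 fell and 7 were not called (median 0.34), against 32.6% higher and 25.8% lower over all tested genes. The 3 were Soat1, which esterifies cholesterol for storage (2.46 ± 0.35), Pltp (1.73 ± 0.27), a transfer protein for phospholipids, and Npc1, which moves cholesterol out of lysosomes (1.62 ± 0.10), whereas the sterol receptor Nr1h3 fell (-1.59 ± 0.20). Of 20 synthesis genes 4 rose and 8 fell (median -0.34), with Sc5d, a late enzyme, among the 8 (-2.13 ± 0.33). The count of higher synthesis genes was 2 without control 2 or 5 or day 7 graft 2 or 4.

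Cytokine and chemokine genes rose furthest among the immune lists, in 18 of 20 cases with 2 not called and a median of 3.70. Il1b, interleukin 1 beta, is given here as an example chosen after its values were seen, and was at 2.39, 1.57, 3.64, 3.82 and 24.7 CPM in controls 1 to 5 and 347, 44.6, 136, 40.0 and 8.74 CPM in day 7 grafts 1 to 5. Grafts 1 and 3 were highest, and graft 5 lay below control 5 (3.78 ± 1.27, adjusted p = 0.0256). Leaving out control 1 ended the call (adjusted p = 0.0552), as did leaving out control 2 (0.0536), 3 (0.0549) or 4 (0.0517), and the change was 4.41 without control 5, 3.15 without day 7 graft 1 and 4.46 without graft 5. The neutrophil chemokines Cxcl5 (2.89 ± 6.33 to 62.4 ± 46.4 CPM), Cxcl2 (0.586 ± 0.808 to 67.0 ± 69.8 CPM) and Cxcl3 had changes of 8.05 ± 1.74, 7.27 ± 1.48 and 7.22 ± 1.72. Without control 5 these were 9.70, 7.97 and 8.05, without control 1 Cxcl5 and Cxcl3 were at 7.37 and 6.60, and without control 2 Cxcl5 was at 7.45. Of 12 neutrophil genes 4 were higher, 1 was lower and 7 were not called (median 1.44), a share near the 32.6% higher over all tested genes. S100a8, a calcium-binding protein that neutrophils hold in bulk, was at 2.18, 1.68, 3.14, 1.53 and 33.3 CPM in controls 1 to 5 and 196, 25.8, 94.8, 21.5 and 75.5 CPM in day 7 grafts 1 to 5. Graft 1 was far the highest, and grafts 2 and 4 lay below control 5 (4.05 ± 1.0, adjusted p = 0.00537, and 4.86 without control 5). Without control 2, control 4 and day 7 graft 5 together the calls of Cxcl3 (7.03, adjusted p = 0.0545) and S100a8 (3.15, adjusted p = 0.0535) ended, and 2 neutrophil genes were higher.

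Genes of antigen presentation and B cells fell, while the count of lower T and NK cell genes changed with the libraries used. Of 8 genes of MHC class II presentation 7 fell and 1 was not called (median -1.56). Cd74, the chaperone of class II molecules, was at 1459.8, 1435, 2227, 646 and 1423 CPM in controls 1 to 5 and 405, 517, 583, 496 and 136 CPM in day 7 grafts 1 to 5. Every graft lay below every control, with control 4 the lowest control and graft 5 the lowest graft (-1.82 ± 0.43, adjusted p = 0.00448). All 8 B cell markers fell (median -6.68), and of 15 T and NK cell markers 8 fell, 1 rose and 6 were not called (median -3.07). Over all tested genes 25.8% were lower and 32.6% higher. Without any 1 of day 7 grafts 1 to 4 the count of lower T and NK cell markers was 4, and without graft 5 it was 5, with 3 higher. Without grafts 2 and 5 together 1 was lower and 3 were higher, and 3 lymph node stroma genes were lower. Cr2, the complement receptor of B cells, was at 173, 145, 258, 16.4 and 122 CPM in controls 1 to 5 and 0.113, 0.275, 0.708, 0.707 and 0.339 CPM in day 7 grafts 1 to 5. Control 4 held a fraction of what the other controls held (-8.16 ± 1.44, adjusted p = 7.43e-04, and -8.84 without control 4). Glycam1, an L-selectin ligand on the venules of lymph nodes, was at 121, 114, 155, 3.62 and 128 CPM in controls 1 to 5 and 0.225, 0.206, 0.308, 0 and 0.0377 CPM in day 7 grafts 1 to 5. Control 4 was again the lowest control, and it lay above every graft (-9.0 ± 2.71, adjusted p = 0.0155, and -10.04 without control 4). Its call ended without the mesothelium-bearing grafts 2 and 5 together (adjusted p = 0.0675). Scores of class II genes were 6.29 to 8.44 in controls and 4.58 to 6.19 in day 7 grafts. Those of B cell markers were 4.31 to 8.02 in controls and 0.91 to 1.73 in day 7 grafts. Lymph node stroma genes had 2.8 to 6.11 in controls and 0.93 to 1.97 in day 7 grafts. All of these lists thus fell between the groups, with control 4 the lowest control in each. Among the grafts they did not move together, as graft 5 had the lowest class II score but the highest B cell and stroma scores. Their parts were not separated. Interferon-stimulated genes did not lean as a list, with 6 of 18 higher, 2 lower and 10 not called (median 0.58). The share higher was near the 32.6% over all tested genes. Without day 7 graft 5, the graft with the lowest score of these genes (4.27 against 5.64 to 5.92 in the other grafts), 10 were higher. Oas1a, an antiviral synthetase, rose (1.71 ± 0.28), and the chemokine Cxcl9 fell (-1.85 ± 0.47).

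Complement genes moved in both directions. Of 14 tested 7 rose, 3 fell and 4 were not called, against 32.6% higher and 25.8% lower over all tested genes. The list leaves out Cfd, adipsin, which is complement factor D, and the complement receptor Cr2. Both fell further than any of its members (-6.09 and -8.16). The receptors C3ar1 (23.5 ± 24.7 to 467 ± 31.1 CPM, 4.82 ± 0.53) and C5ar1 (3.77 ± 0.48), carried by myeloid cells, rose. C3, the central component, which adipocytes also make, fell (2570.2 ± 637 to 973 ± 499.9 CPM, -1.48 ± 0.29), and so did the membrane inhibitors Cd59a (-1.99 ± 0.38) and Cd55 (-1.62 ± 0.17).

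Collagen and matrix genes rose as nearly complete lists. All 18 collagen chains tested rose (median 3.46), beside 32.6% of all genes. Col1a1, a chain of type I collagen, was at 303, 200.5, 144, 450.5 and 813 CPM in controls 1 to 5 and 4954, 6429, 6285, 6694 and 5948 CPM in day 7 grafts 1 to 5. Control 5 was the highest control and lay far below every graft (4.26 ± 0.49, adjusted p = 4.87e-05). The largest fitted changes were those of Col12a1, which coats collagen fibrils (18.4 ± 11.2 to 1151 ± 364 CPM, 6.05 ± 0.35), Col8a1, a short-chain collagen of remodelling vessels (5.31 ± 0.50), and Col11a1, which starts fibrils (5.03 ± 1.22, and 5.68 without day 7 graft 5). The basement membrane chains Col4a1 (1.24 ± 0.30) and Col4a2 (1.21 ± 0.27), named after their values were seen, rose least. The share of all TPM from collagen chains was 0.104, 0.0826, 0.0828, 0.141 and 0.275% in the 5 controls and 1.51, 1.77, 1.70, 1.77 and 1.41% in the 5 grafts. Of 17 enzymes that process collagen 16 rose (median 2.48), led by the prolyl hydroxylase P4ha3 (6.95 ± 0.95, with 7.87 without control 5 and 5.69 without control 4). All 14 matricellular and adhesive glycoproteins rose (median 4.20). Tnc, tenascin C, a glycoprotein of healing wounds, went from 36.5 ± 49.5 to 1325 ± 329 CPM (5.90 ± 0.66, and 6.55 without control 5).

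Proteases rose together with their inhibitors, in 16 of 18 cases with 1 lower and 1 not called (median 2.52). Mmp13, a collagenase, rose by 6.54 ± 0.87. Among the tissue inhibitors, Timp1 was at 4.26, 1.68, 2.67, 2.16 and 93.7 CPM in controls 1 to 5 and 314, 186, 385, 248 and 701 CPM in day 7 grafts 1 to 5. Control 5 stood far above the other 4 controls, and all grafts stood above control 5 (5.96 ± 0.87, adjusted p = 2.18e-04, and 7.00 without control 5). Timp4, an inhibitor abundant in fat, fell (-4.23 ± 0.65). Elastic fibre genes rose in 8 of 10 cases (median 2.83), such as Mfap4 (5.54 ± 0.73) and the fibrillin Fbn2 (4.82 ± 0.48), but elastin itself, Eln, was at 82.6 ± 29.8 CPM in controls and 133 ± 76.8 CPM at day 7 and was not called (0.61 ± 0.36, adjusted p = 0.162).

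All 12 genes of activated fibroblasts rose (median 2.91). Lrrc15, a surface protein of matrix-producing fibroblasts at chromosome 16, 30269302 to 30283256 in mm10, was at 0.572, 0.116, 0.369, 0.236 and 9.27 CPM in controls 1 to 5 and 374, 387, 396, 336 and 156 CPM in day 7 grafts 1 to 5. It was near 0 in controls 1 to 4, and graft 5 held less than the other grafts (9.0 ± 0.83, adjusted p = 1.50e-05, and 9.99 without control 5). Cthrc1, a secreted protein of the same cells, rose by 6.68 ± 1.01 (7.82 without control 5 and 5.82 without control 2). Progenitor markers were less uniform, with 7 of 13 higher, 2 lower and 4 not called (median 1.02), beside 32.6% and 25.8% of all tested genes. Pdgfra, the receptor that marks fibroblasts and adipocyte progenitors, was at 52.5, 54.5, 44.3, 104 and 168 CPM in controls 1 to 5 and 288, 271, 320.0, 256 and 357 CPM in day 7 grafts 1 to 5. Grafts lay above controls throughout (2.00 ± 0.36, adjusted p = 8.04e-04). Dlk1, a surface protein of preadipocytes, rose (0.0857 ± 0.0535 to 6.89 ± 6.53 CPM, 5.81 ± 0.99). Dpp4, which marks early progenitors of the fat septa (-1.10 ± 0.28), and Zfp423, a preadipocyte transcription factor (-1.02 ± 0.23), fell.

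Contractile genes were higher in 4 grafts than in the other one. Of 16 smooth muscle and pericyte markers 8 rose, 1 fell and 7 were not called (median 1.07). Over all tested genes 32.6% were higher and 25.8% lower. The count of higher markers was 5 without control 1, 3 or 5 or any 1 of day 7 grafts 1 to 4. Acta2, smooth muscle actin, which myofibroblasts also make, was at 28.4, 27.7, 47.2, 32.9 and 53.5 CPM in controls 1 to 5 and 648, 527, 629, 518 and 171 CPM in day 7 grafts 1 to 5. Graft 5 held the least of the grafts and still lay above every control (3.62 ± 0.35, adjusted p = 1.87e-05). Smooth muscle scores were 4.40 to 4.71 in controls and 4.27 to 5.94 in day 7 grafts, the lowest of all 10 being that of graft 5, while grafts 1 to 4 had 5.75 to 5.94. Cspg4, a proteoglycan of pericytes, fell (-1.76 ± 0.33). Growth factor genes rose in 12 of 17 cases, with 1 lower (median 1.63), or 2 lower without control 3 or day 7 graft 5. Inhba, a subunit of activin, rose (5.94 ± 0.92, and 6.70 without control 5), as did Tgfb2 (3.18 ± 0.26) and Tgfb3 (2.71 ± 0.39), transforming growth factors. Fgf10, a growth factor for preadipocytes, fell (-3.33 ± 0.53).

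**Figure D5:**
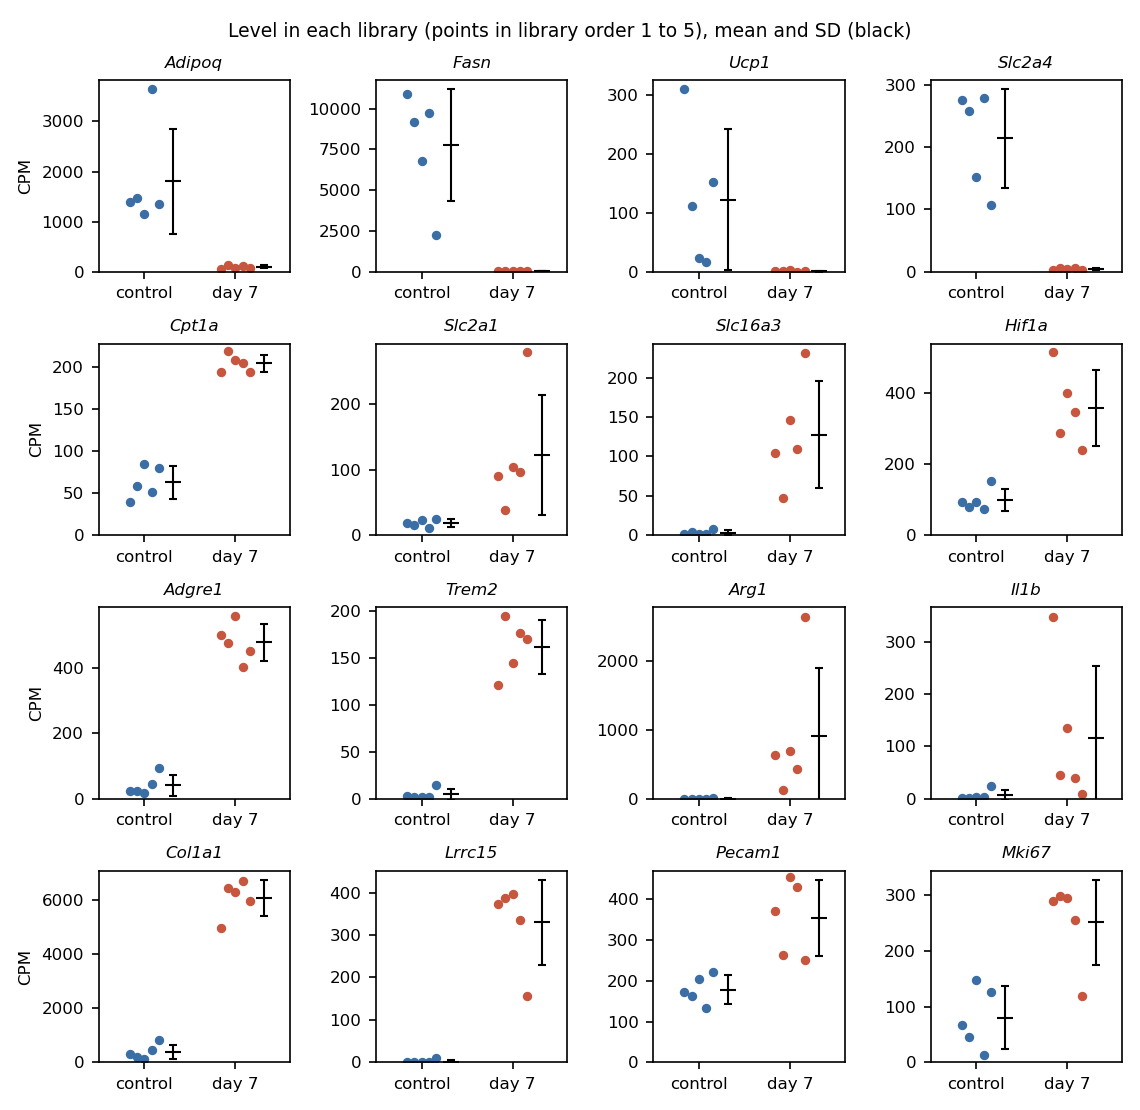
Each panel plots the CPM of 1 gene in 5 controls and 5 day 7 grafts on a linear axis from 0, in library order, with the mean ± SD in black, whose lower arm is clipped at 0 where it would fall below. Adipoq, Fasn, Ucp1 and Slc2a4 are near 0 in all grafts, while graft 5 is high in Slc2a1 and Arg1 and low in Lrrc15 and Mki67.

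Vessel genes rose modestly. The list of angiogenic ligands and tip cell genes rose more at its median, but 3 of its ligands fell. Of 16 endothelial markers 12 rose and 4 were not called (median 0.89). Pecam1, the junction protein CD31, was at 172, 162, 204, 134 and 223 CPM in controls 1 to 5 and 372, 263, 454, 430.1 and 251 CPM in day 7 grafts 1 to 5. The lowest graft, graft 5, lay just above the highest control (0.97 ± 0.20, adjusted p = 0.00213). Cdh5, the adhesion protein of endothelial junctions (1.69 ± 0.22), and Erg, an endothelial transcription factor (1.42 ± 0.20), rose most among those named. The main VEGF receptor Kdr was at 97.0 ± 33.8 CPM in controls and 83.7 ± 28.6 CPM at day 7 and was not called (-0.23 ± 0.33, adjusted p = 0.559, with 0.04 without day 7 graft 5 and 0.14 on TPM). Of 17 angiogenic ligands and tip cell genes 12 rose, 3 fell and 2 were not called (median 1.62). Esm1, a secreted protein of sprouting tip cells, was at 0.329 to 1.15 CPM in controls and 9.0 to 65.3 CPM in day 7 grafts (5.64 ± 1.0, adjusted p = 7.72e-04). Apln, a tip cell ligand (5.52 ± 0.59), and Pgf, placental growth factor (4.80 ± 0.88), rose too. The 3 that fell were Vegfa, above, Vegfb, a ligand of oxidative tissues (40.4 ± 22.8 to 7.62 ± 1.10 CPM, -2.22 ± 0.44), and Angpt1, which steadies mature vessels (-1.09 ± 0.25). Red cell genes, whose near-identical copies may share reads, also rose, 5 of 5 (median 2.05), with scores of 4.08 to 8.18 in controls and 6.08 to 8.79 in day 7 grafts, in which control 4 lay among the grafts. No red cell gene had its groups apart, and 1 or 2 of the 5 were called without control 1, 2, 3 or 5 or without day 7 graft 1, 3, 4 or 5.

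Cell cycle genes rose in 22 of 26 cases, with 4 not called (median 2.00). Mki67, a marker of cells in cycle, was at 67.1, 46.2, 148, 13.2 and 126 CPM in controls 1 to 5 and 289, 298, 295, 255 and 119 CPM in day 7 grafts 1 to 5. Grafts 1 to 4 lay above all controls, and graft 5 lay below controls 3 and 5 (1.99 ± 0.62, adjusted p = 0.0184). Bub1, a kinase of the spindle checkpoint (2.87 ± 0.58, and 2.19 without control 4), Cdk1, the mitotic kinase (2.86 ± 0.39), and Ccnb1, its cyclin (2.7 ± 0.52), rose. Control 4, the control with few lymph node genes, had the lowest cell cycle score, 2.71, beside 3.57 to 4.74 for controls 1, 2, 3 and 5 and 4.88 to 5.87 for grafts.

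Stress genes rose in some lists and hardly in others. Of 10 NRF2 targets 7 rose and 3 were not called (median 1.57). Hmox1, haem oxygenase, was at 66.7, 32.5, 32.8, 61.3 and 417 CPM in controls 1 to 5 and 1506, 1408, 1724, 2113 and 6299 CPM in day 7 grafts 1 to 5. Control 5 was the highest control and graft 5 the highest graft (4.94 ± 0.80, adjusted p = 4.30e-04, and 5.57 without control 5). Of 11 genes that handle iron and haem 7 rose and 2 fell (median 0.75). Slc40a1, the iron exporter ferroportin, rose (21.1 ± 15.8 to 215 ± 49.0 CPM, 3.57 ± 0.38), as did the ferritin chain Ftl1 (2.06 ± 0.19), while Trf, transferrin, fell (-2.11 ± 0.37). Folding genes of the endoplasmic reticulum rose in 9 of 11 cases (median 1.07), for example Manf (1.45 ± 0.27). Of 12 genes of the integrated stress response 3 were higher, 1 was lower and 8 were not called (median 0.20), no more than the 32.6% higher over all tested genes, with Atf3, a stress transcription factor, the largest rise (4.11 ± 0.27) and Phgdh, the first enzyme of serine synthesis, the 1 that fell (-2.14 ± 0.28). Without control 1 or 4 there were 2 lower genes in that list, and without control 3 or day 7 graft 5 there were 3.

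Nerve and clock genes completed the picture of fat tissue genes. Of 10 Schwann cell markers 7 fell and 3 were not called (median -1.38). Of 17 genes of the circadian clock 8 fell, 2 rose and 7 were not called (median -0.61), against 25.8% lower and 32.6% higher over all tested genes. Hlf, an output transcription factor, was among the 8 (-4.34 ± 1.01). The count of higher clock genes was 1 without control 1, 2 or 3. Times of collection are not given in the labels, so time of day and grafting cannot be told apart for the clock.

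At the ends of the ranking stood genes of several kinds, taken from calls whose samples did not overlap and whose mean reached 10 CPM in at least 1 group. The 10 highest by the rule for extremes were Fam177a, Arg1, Lrrc15, Spp1, C1qtnf3, Mmp12, Hmga2, Cxcl5, Chga and Kif26b. The top value needs care. Fam177a was at 0 in all 5 controls and at 1.13 to 44.0 CPM in the grafts, at least 200-fold higher on the group means against a floor of 3 counts per library. It lies beside a near-identical copy, Fam177a2, and the 2 genes summed were at 40.4 to 52.1 CPM in controls and 44.5 to 49.3 CPM in grafts, so the sum overlapped and the share assigned to each copy is uncertain. Without day 7 graft 1 its fitted change moved from 9.54 to 10.52, and its call ended without control 2, control 4 and day 7 graft 5 together (9.38, adjusted p = 0.0882). C1qtnf3, an adiponectin-related secreted protein, was at 2.7, 0.174, 0.184, 0.197 and 1.84 CPM in controls 1 to 5 and 257, 430.3, 145, 287 and 45.3 CPM in day 7 grafts 1 to 5. It was low in every control and lowest among the grafts in graft 5 (8.43 ± 1.19, adjusted p = 1.79e-04). Hmga2, a chromatin protein of embryonic and healing tissue, rose from 0.358 ± 0.800 to 15.6 ± 3.82 CPM (8.07 ± 0.90, and 9.31 without control 5). In mm10, Arg1 lies at chromosome 10, 24915221 to 24927484, Spp1 at chromosome 5, 104435118 to 104441050 and Adipoq at chromosome 16, 23146536 to 23158028. The 10 lowest were Cidea, Thrsp, Glycam1, Cox8b, Acsm3, Gys2, Serpina10, Ucp1, Dsc3 and Cr2. Gys2, the liver-type glycogen synthase, fell from 40.1 ± 15.4 to 0.114 ± 0.103 CPM (-8.66 ± 0.82). Serpina10, an inhibitor of clotting factors, had no count in any graft and was at least 102-fold lower on the group means, on the same floor. Where a group is at or near 0, the fitted size depends on the small offset added before taking logs and is not a measured fold. Of the others, Dsc3 was at -8.35 and Serpina10 at -8.59, or -9.43 and -9.55 without control 4, and Acsm3 at -8.69, or -7.99 without day 7 graft 1. The call of Dsc3 ended without the mesothelium-bearing grafts 2 and 5 together (adjusted p = 0.0726).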

How the data were processed

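Per the labels' protocols, RNA came from mouse fat by Trizol and RNeasy, and stranded libraries of mRNA were read from both ends at 151 bp. Tools named in the submitters' processing notes are RSEM 1.3.1, STAR 2.7.1a and cutadapt 2.8, with mm10 as the build, and no annotation release is stated in these sources. The authors deposited a matrix with a gene count, an RPKM and a TPM per sample, of which 30 columns were used. The deposited counts are whole numbers written with digit separators, per the file headers and values, and were read as whole counts once the separators were removed. The deposited TPM served for levels between genes and in 1 alternative, and the RPKM was not used.

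Of 55471 genes, the 15599 with at least 10 counts in at least 5 of the 10 samples were tested. Trimmed means of M-values set the library sizes (trims of 30% and 5%), and voom of limma 3.58.1 (R 4.3.3) was fitted to these samples without a block. Adjusted p-values are Benjamini-Hochberg over all tested genes. The 64 lists (867 entries) and the members were chosen with earlier results of these data known. Named genes are the 10 highest and the 10 lowest fold changes among called genes with at least 10 CPM in 1 group, no overlap and no predicted name, up to 3 called members in each direction and 2 uncalled ones of each list, 17 family pairs and a panel of 16 genes. Other genes are named as examples, or as markers of a library, after their values were seen. A repeated symbol (118) took the entry with most counts. Some results are not reported here. Of 21130 protein-coding symbols found in RefSeq GRCm38.p6, 99.9% overlapped it in position.

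The fit was tested on simulated counts in this layout (15997 genes, dispersion 0.1). It recovered 7.46% of 67 genes changed 1.5-fold, 25.4% of 63 changed 2-fold and 100% of 65 changed 4-fold, with 3 false calls. Far fewer genes changed there than were called here (58.4%), which makes the adjusted threshold stricter. These shares are thus not the sensitivity of this comparison. Alternatives changed the scaling, filter, samples, block, weights, unit and test, or left out libraries, of which 1 (day 7 grafts 2 and 5 together) was added after seeing the data. Another, without control 2, control 4 and day 7 graft 5 together, left out libraries that stand apart in these same data. Plots used matplotlib 3.10.9.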

Additional observations from a re-analysis of the deposited data

Results flagged for a closer look

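The score of each of the 64 gene lists was checked in each group for a library far from the other 4, by a test for single outliers that chance meets in about 1 of 20 groups, and 21 of 128 were found. Control 5 was high in macrophage markers (6.85 against 5.2 to 5.58 in the other controls), giant cell and osteoclast-type genes (3.42), Fc receptor and ITAM signalling genes (5.38), neutrophil genes (3.46), inflammatory cytokine and chemokine genes (3.44), activated fibroblast genes (5.92), NRF2 targets (5.75) and platelet genes (2.19). The median change of each of these lists was above 0 (1.44 to 4.51), with 3 tested genes in the platelet list, of which 2 were higher and 1 was lower (-1.34). The untested platelet genes Gp1ba and Gp9 had at most 5 counts in any library. Control 4 was low in B cell markers (4.31), T and NK cell markers (1.74) and lymph node stroma genes (2.8 against 5.71 to 6.11), and high in endothelial markers (5.46). Control 1 was high in keratinocyte (3.53 against 0.340 to 0.652) and Schwann cell markers (3.99).

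Among the grafts, day 7 graft 5 was the library set apart in each case. It was high in resident and alternatively activated macrophage genes (7.79 against 5.86 to 6.04), complement genes (8.26) and glandular epithelial markers (1.44). It was low in interferon-stimulated genes (4.27), MHC class II presentation genes (4.58), smooth muscle and pericyte markers (4.27 against 5.75 to 5.94) and cell cycle genes (4.88). Its glandular epithelial score came mainly from keratins, with 404 counts of Krt8 and 163 of Krt18. Other members of that list, Epcam and Csn3, had 6 and 5 counts. Its mesothelial score was high as well (3.43), and which cells made the keratins was not tested.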

How the results depend on the processing

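Of 3902 results for 163 named genes under 24 alternatives, 3874 kept their direction and their side of the threshold, 14 calls were lost, 6 were gained and 8 values changed sign, all 8 in genes that were not called. Many of these genes were named for large called changes, so their stability was partly set by that choice. Of all 9114 called genes, 7398 on log2(TPM + 1) to 9045 with sample quality weights kept their call and direction. Leaving out 1 library kept 8048 to 8710 of them, and leaving out day 7 grafts 2 and 5 kept 7520. The numbers of higher and lower genes stayed within 1.5 times of 5087 and 4027, except for the 2395 lower genes on log2(TPM + 1). That scale gave 6876 higher genes, within the same range. Leaving out 1 library gave 4544 to 5072 higher and 3502 to 4929 lower genes. Replicate numbers gave no clear sign of pairing. Same-numbered samples had correlations of -0.11, 0.00, 0.17, -0.05 and 0.18, none the best graft match of its control. Replicates 3 and 5 came close to their best other match (0.20 and 0.18), so this check cannot decide whether same-numbered samples share an animal. The replicate block gave 4891 higher and 3961 lower genes. No alternative varied the depth. In the simulation 25.4% of 2-fold changes were recovered, but far fewer genes changed there, so this is not the sensitivity of this comparison. The cause of the shifts that follow was not tested. On TPM, the values were 0.01 for Cd36, 0.14 for Kdr and 0.12 for Ldha. Leaving out 1 library put Kdr between -0.43 and 0.04 and Apoe between -0.02 and 0.33, with the 0.04 and the -0.02 without day 7 graft 5. Kdr was at 0.26 without control 2, control 4 and day 7 graft 5 together, and Kdr at 0.14 and Apoe at -0.09 without day 7 grafts 2 and 5 together.

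List medians moved beyond the spread between replicates most often on TPM, which gave -4.58 for fatty acid synthesis, -3.34 for triglyceride synthesis, -2.40 for lipolysis, 0.23 for fatty acid uptake, -2.06 for fatty acid oxidation, -0.83 for the respiratory chain and -1.99 for branched-chain amino acids. The same scale gave -1.98 for thermogenic genes, -1.14 for insulin signalling, 0.13 for caveolae, -0.27 for the clock, 0.78 for glycolysis, 0.03 for glucose and lactate transporters with pyruvate dehydrogenase kinases, and -0.36 for the pentose phosphate pathway. It gave 0.65 for cholesterol efflux, 0.01 for cholesterol synthesis, 1.73 for lysosomes, 1.36 for progenitors, 0.54 for the integrated stress response, -5.16 for B cells, -1.18 for dendritic cells, -0.69 for mast cells and -0.60 for Schwann cells. On log2(CPM + 1) the medians were -3.58 for triglyceride synthesis, -2.81 for thermogenic genes, 2.92 for cytokines, 1.40 for growth factors and -1.04 for Schwann cells. Without control 2, control 4 and day 7 graft 5 together they were -4.45 for thermogenic genes, 1.45 for hypoxia, 1.76 for giant cells, 0.72 for resident macrophages, 0.19 for cholesterol efflux, 0.60 for neutrophils and 1.64 for smooth muscle. The same subset gave -0.74 for skeletal muscle, -7.76 for B cells, -6.43 for lymph node stroma and -4.96 for plasma cells. Without day 7 grafts 2 and 5 they were 1.86 for angiogenic genes, -5.87 for lymph node stroma and -1.79 for mast cells. Progenitors were at 0.65 with no filter, neutrophils at 2.39 with a filter of 1 CPM, lymph node stroma at -5.96 with sample quality weights, and collagens at 2.83 without the 20 most abundant genes. Leaving out 1 library put Schwann cell markers between -1.67 and -1.26 and the glucose and lactate transporters with kinases between -0.70 and -0.34.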

Other observations

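A pair of gene groups outside the lists above was chosen after the values were seen and is given as values only. Of 22 imprinted genes, which are expressed from 1 parental copy and many of which are active in fetal growth, 19 passed the filter, of which 11 rose, 3 fell and 5 were not called (median 1.11). Over all tested genes 32.6% were higher and 25.8% lower. The noncoding RNA H19 was at 3.07, 44.7, 5.21, 13 and 25.4 CPM in controls 1 to 5 and 512, 830.0, 341, 457 and 152 CPM in day 7 grafts 1 to 5. Every graft lay above every control, and graft 5 held the least of the grafts (5.09 ± 0.68, adjusted p = 1.27e-04). Meg3, another noncoding RNA, rose from 40.6 ± 20.05 to 399 ± 76.0 CPM (3.43 ± 0.37, adjusted p = 3.45e-05), and Mest, which is known to follow fat expansion, rose from 3.81 ± 2.83 to 140.3 ± 57.7 CPM (5.26 ± 0.66, adjusted p = 8.16e-05). Nnat, a proteolipid, fell from 176 ± 161 to 16.1 ± 11.2 CPM (-3.13 ± 0.76, adjusted p = 0.00485).

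All 15 of 15 genes best known from liver that were listed fell (median -5.83), against 25.8% lower over all tested genes. That count was shaped by choosing the genes after their values were seen. Alb, serum albumin, was at 21.8, 19.9, 12.8, 43.0 and 14.3 CPM in controls 1 to 5 and 0.30, 0.619, 0.431, 0.660 and 0.527 CPM in day 7 grafts 1 to 5. Every control lay above every graft (-5.35 ± 0.57, adjusted p = 3.44e-05). Orm1, an acute phase protein, fell from 245 ± 127 to 5.02 ± 1.08 CPM (-5.50 ± 0.35, adjusted p = 3.40e-06), and Cyp2e1, a cytochrome P450, from 2657 ± 1838 to 19.2 ± 8.87 CPM (-6.91 ± 0.45, adjusted p = 4.04e-06). The Mup genes of this group are near-identical copies, and the share of reads given to each is uncertain. Among all called genes, 5 had no count in any control and 9 had none in any graft. Apoc3, an apolipoprotein, was among the 9, at least 43.9-fold lower in grafts on the group means against a floor of 3 counts per library.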
